A study of Mus musculus with 9 samples.

Results

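The histone genes of the mouse expression array were described here in 3 kinds of sample. Members were the array probes, control spots aside, whose gene name in the scanner files begins with Hist1h, Hist2h, Hist3h or Hist4h (the clustered genes) or is one of H1f0, H1fx, H2afx, H2afy, H2afz, H2afv, H2afj, H3f3a and H3f3b (the replacement genes). This gave 66 probes of 41174 and 43 genes of 27573, of which 34 were clustered and 9 replacement. Samples were taken from 3 mice (832, 833 and 834), all female BALB/c athymic animals, a strain without a thymus and with few T cells. Each mouse gave blood before tumour inoculation (day 0 blood), blood 10 days after subcutaneous inoculation of Hepa1-6 cells (day 10 blood), and on day 10 a fraction of the tumour enriched in tumour-infiltrating inflammatory cells (TIC). Hepa1-6 is a mouse hepatoma cell line. The TIC fraction is enriched, not sorted, so it can hold tumour cells. Blood of uninoculated mice at day 10 was not analysed here, so time and inoculation cannot be told apart between the bloods. All 9 arrays carried the sample in the Cy5 channel; the Cy3 channel held the same reference throughout, RNA from the blood of 1 untreated C57Bl/6 female. Values below are log2 ratios of sample over reference, or differences between groups of them with the SE of a limma fit on all 9 arrays, 3 a group.

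Histones package DNA into nucleosomes, built from H2A, H2B, H3 and H4, and H1 binds the linker DNA between them. Clustered histone genes are made mainly in S phase, and most of their mRNAs end in a stem-loop rather than a poly(A) tail, although some also give polyadenylated transcripts in differentiated cells. Replacement histones are made outside S phase too, from polyadenylated mRNAs, and enter chromatin independently of DNA replication. The labelling kit used here primes cDNA synthesis from poly(A) tails, so the clustered genes are read here mainly through transcripts with such a tail. Blood mRNA is dominated by reticulocytes, young red cells without a nucleus that keep mRNA made before the nucleus was lost.

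The sequences before the gene starts show what the families share. RefSeq promoter windows (assembly GRCm38.p6, 250 bases before to 50 after the start) were found for 37 of the 43 genes. Both strands were searched for the octamer ATTTGCAT, for CCAAT, for TATAAA and for AAACACA, the H1 box, and no match of one motif overlapped a match of another. The octamer stood in 3 of 5 windows of clustered H2B genes and 6 of 11 of clustered H2A genes, in none of the 13 of clustered H1, H3 and H4 genes, in 1 of 8 of replacement genes, and in 1.75% of all 27025 windows. It ran along the gene's own strand in the H2B windows and along the other strand in the H2A windows. The H1 box stood in 5 of 6 windows of clustered H1 genes, always 112 to 122 bases before the start, against 7.14% of all windows. CCAAT stood in 26 of 29 windows of clustered genes and 5 of 8 of replacement genes, against 37.9% of all, and TATAAA in 18 of 29 and 1 of 8, against 14.2%. The following bases run 5′ to 3′ on the gene's strand. They are shown for 3 H2B genes, H1f2, both genes of histone H3.3, and the region shared by H2ac1 and H2bc1. Of those 3 H2B genes, H2bu2 has no octamer in its window. Capitals mark CCAAT on either strand and the octamer on either strand, or for H1f2 CCAAT and the H1 box.
H2bc14, chr13:21721914-21722043, plus strand: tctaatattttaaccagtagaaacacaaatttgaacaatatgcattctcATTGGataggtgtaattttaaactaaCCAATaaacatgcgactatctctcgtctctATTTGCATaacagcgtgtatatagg
H2bc12, chr13:22035691-22035820, plus strand: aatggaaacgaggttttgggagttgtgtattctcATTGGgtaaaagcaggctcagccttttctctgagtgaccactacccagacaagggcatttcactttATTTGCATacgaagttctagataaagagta
H2bu2, chr11:58948781-58948910, plus strand: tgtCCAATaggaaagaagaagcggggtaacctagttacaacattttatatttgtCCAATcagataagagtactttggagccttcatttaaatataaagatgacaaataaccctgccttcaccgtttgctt
H1f2, chr13:23738677-23738806, plus strand: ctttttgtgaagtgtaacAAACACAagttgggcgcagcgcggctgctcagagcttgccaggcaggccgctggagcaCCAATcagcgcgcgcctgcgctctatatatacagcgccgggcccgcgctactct
H3f3a, chr1:180813606-180813735, minus strand: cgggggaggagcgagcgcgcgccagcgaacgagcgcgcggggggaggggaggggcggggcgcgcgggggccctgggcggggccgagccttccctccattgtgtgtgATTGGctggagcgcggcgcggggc
H3f3b, chr11:116024505-116024634, minus strand: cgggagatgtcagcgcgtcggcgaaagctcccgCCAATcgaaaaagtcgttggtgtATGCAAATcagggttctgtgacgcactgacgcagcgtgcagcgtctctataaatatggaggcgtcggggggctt
H2ac1 and H2bc1, chr13:23934187-23934406, plus strand: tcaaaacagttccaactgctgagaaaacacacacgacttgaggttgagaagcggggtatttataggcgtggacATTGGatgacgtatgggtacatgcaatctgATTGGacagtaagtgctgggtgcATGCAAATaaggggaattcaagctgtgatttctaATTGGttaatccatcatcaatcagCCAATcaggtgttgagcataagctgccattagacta
H2ac1 and H2bc1 are transcribed away from each other, with 280 bases between their starts, and so share 1 octamer and 4 CCAAT boxes. The replacement gene with an octamer was H3f3b. Its whole window holds 4 CCAAT boxes, 1 of them in the bases shown, while that of H3f3a, the other gene for the same protein, holds 1 CCAAT box and no octamer. A match is a run of letters in the window, and whether a factor binds there was not measured.

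The Cy5 signal was weakest for day 10 blood, with 14.2% to 21.0% of spots well above background, against 24.3% to 36.9% for day 0 blood and 48.2% to 55.1% for TIC. No spot was saturated. Of the 43 histone genes, 36 passed the filter on dim probes (28 clustered, 8 replacement), which asked that the Cy5 signal of a probe be well above background on 3 or more of the 9 arrays. H1f6, H2ac6, H2ac19, H2bc6 and H3c1 were too dim. The main probes of H2ac1 and H2az1 were bright on all arrays but had no usable spot on the TIC array of mouse 832. The mean log2 intensity of the histone probes was high, with a median of 9.42 against 6.71 over all 14253 genes tested. Ratios were normalized by loess, which sets the ratio of each probe against that of probes of like brightness on the same array. When arrays were only centred on their median, the median of all genes moved to 1.38 for TIC minus day 10 blood, from 0.07 with loess, and to 1.16 for TIC minus day 0 blood, from 0.01. Several directions given below hold with loess and not with median centring, and both values are then given. Values called the Cy5 channel alone were rebuilt from the loess ratios and the mean log2 intensity of both dyes. That intensity was first made alike across arrays by quantile normalization. These values thus depend on loess and on the reference too.

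No histone gene passed the threshold between the bloods, where no gene of the array did either (0% of all genes tested, Benjamini-Hochberg adjusted p from limma). At an unadjusted p under 0.05, 10 histone genes of 36 lay higher and 4 lower in day 10 blood, against 8.7% and 6.06% of all genes. With the mouse as a block, which compares each mouse with itself, 4 histone genes passed, H2bc4, H2bc14, H2bc1 and H2bu2, all higher in day 10 blood, against 0.225% of all genes (32 of 14253). With slide as a block, alone or with the mouse, none of the 36 passed, and 0% of all genes did. The fit pools the spread of the TIC arrays with that of the bloods. Without the TIC array of mouse 833, 10 histone genes passed, against 7.42% of all genes, and with the blood arrays alone 8 did, against 5.24%. Among genes well above background on all 9 arrays 8 of 27 histone genes passed, against 3.77%. The median difference of the clustered genes was 0.08 (SD over mice 0.12) and that of the replacement genes 0.09 (SD over mice 0.06), against -0.01 over all genes.

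In the TIC fraction most histone genes differed from day 10 blood, in both directions and in both classes. Of 36 genes, 12 were higher and 13 lower, a share close to that of all genes (34.4% higher and 33.1% lower). With median centring 32 were higher and 0 lower, against 72.1% and 3.25% of all genes, and in the Cy5 channel alone 18 and 12, against 38.6% and 31.5%. Of the 13 lower genes, 12 changed sign with median centring and 10 lay above the median of all genes there. The 12 higher genes kept a positive sign under each scaling, but with Agilent's processed signals, where the median of all genes was 0.84, H1f5 and H2aw lay below that median and 10 of the 12 were still called. Among the clustered genes 8 were higher and 10 lower of 28, with a median of -0.14 (SD over mice 0.14), and among the replacement genes 4 were higher and 3 lower of 8, with a median of 0.30 (SD over mice 0.27), against 0.07 over all genes. The replacement count and median include H1f0, which passed the filter only through the TIC arrays. Day 10 blood and TIC arrays shared no slide. With slide as a block, estimated through the day 0 arrays, 16 histone genes passed (4 higher, 12 lower), against 30% of all genes, and with slide and mouse together 8 did (1 higher, 7 lower), against 7.79%. Against day 0 blood 9 genes were higher and 14 lower in TIC, against 31.7% and 33.6% of all genes. With median centring 31 were higher and 0 lower, against 66.1% and 5.73%, and in the Cy5 channel alone 17 and 10, against 35.9% and 32.1%. Of the 14 lower genes, 12 changed sign with median centring and 10 lay above the median of all genes there. The plot of differences by family shows genes on both sides of 0 within each class.

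**Figure D1:**
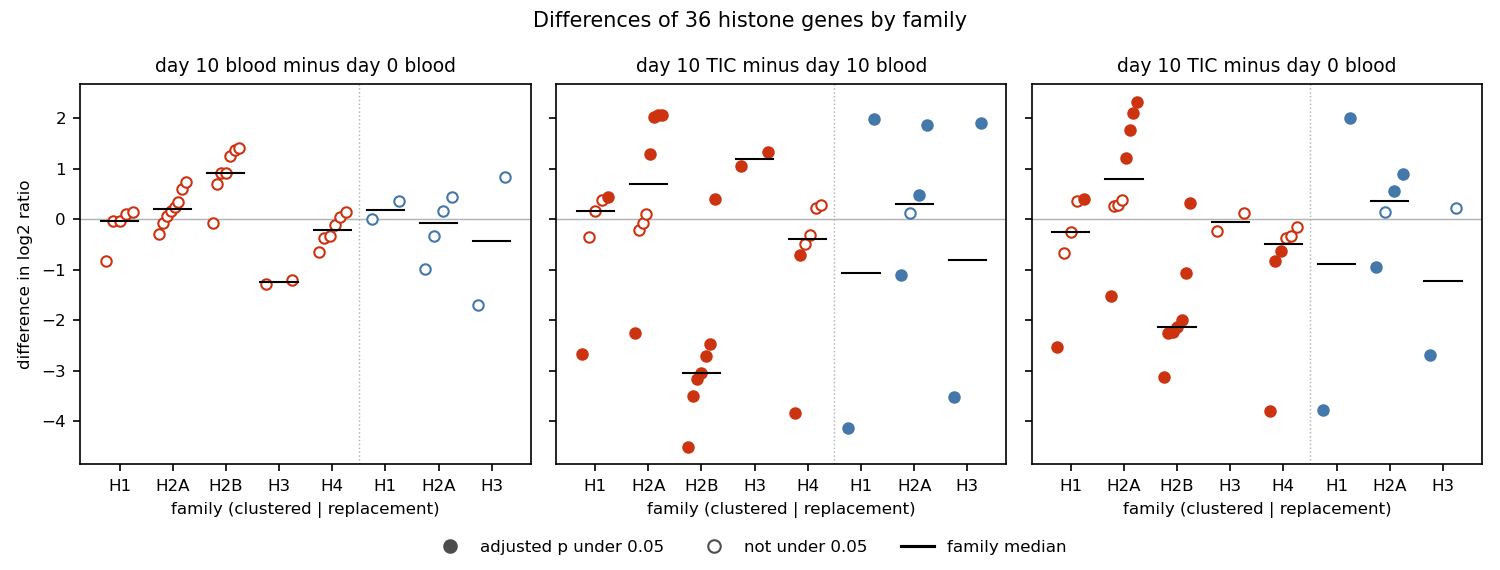
Difference in log2 ratio (y axis) of each of 36 histone genes by family (x axis), clustered genes left of the dotted line and replacement genes right of it, for the 3 comparisons, after loess. Filled points passed an adjusted p under 0.05 and bars are family medians. No point is filled between the bloods, and in the TIC fraction 6 of 7 clustered H2B genes lie below -1 while both clustered H3 genes lie above day 10 blood.

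H3.3, the replacement form of H3, is encoded by H3f3a and H3f3b, whose proteins are the same. With loess their mRNAs lay in opposite directions in both steps, though H3f3a changed sign in both with median centring. For H3f3a (probe on chromosome 1, 182639321 to 182639380, build mm8) the log2 ratios were 0.28, 0.34 and -0.28 in day 0 blood of mice 832, 833 and 834, 0.76, 0.70 and 1.38 in day 10 blood, and -2.91, -2.29 and -2.50 in TIC. The 3 groups did not overlap: day 10 blood was highest and TIC lowest. For H3f3b (chromosome 11, 115839463 to 115839522) they were 1.20, 2.29 and 0.53 in day 0 blood, -0.23, -0.22 and -0.59 in day 10 blood, and 1.39, 1.90 and 1.41 in TIC. Here day 10 blood lay below every other array, and day 0 blood and TIC overlapped.

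Between the bloods the difference of H3f3a was 0.83 ± 0.25 (SE, limma adjusted p = 0.192), higher in 3 of 3 mice, and -0.63 with median centring. That of H3f3b was -1.69 ± 0.39 (adjusted p = 0.118), lower in 3 of 3 mice and -2.39 with median centring. Neither passed the threshold. TIC against day 10 blood gave -3.51 ± 0.25 for H3f3a (adjusted p = 6.14e-06), but 3.04 with median centring, where all genes moved to 1.38. H3f3b rose by 1.91 ± 0.39 on the log2 scale in the same comparison (adjusted p = 0.00238), and by 6.64 with median centring. With slide as a block that rise was 0.79 and did not pass (adjusted p = 0.323). Against day 0 blood H3f3a was at -2.68 ± 0.25 (adjusted p = 3.58e-05) with loess and at 2.41 with median centring, and H3f3b was at 0.23 ± 0.39 (adjusted p = 0.622). Without the day 0 array of mouse 833, H3f3b passed in that comparison, at 0.70 (adjusted p = 0.0444). The other probes that were bright on all arrays followed with loess. Those of H3f3a gave -3.86 and -4.09 for TIC minus day 10 blood, and that of H3f3b gave 1.35. The remaining probe of H3f3b, dim in both bloods, passed the filter only through the TIC arrays, so no difference is given for it.

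The log2 ratio of H3f3b less that of H3f3a on the same array does not change with the centring of the array. It was 0.92, 1.95 and 0.81 in day 0 blood, -0.99, -0.92 and -1.97 in day 10 blood, and 4.30, 4.19 and 3.91 in TIC. The 3 groups did not overlap under any of the 4 normalizations compared. The change from day 0 to day 10 blood was -2.52 with loess, -2.20 with Agilent's processed signals, -1.77 with median centring and -2.19 in the Cy5 channel alone. From day 10 blood to TIC it was 5.43, 4.70, 3.60 and 4.94. So the balance of the mRNAs of these genes shifted towards H3f3a in day 10 blood and towards H3f3b in TIC, in all 3 mice. The pair was chosen after its values were seen and the shift is given without a test.

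**Figure D2:**
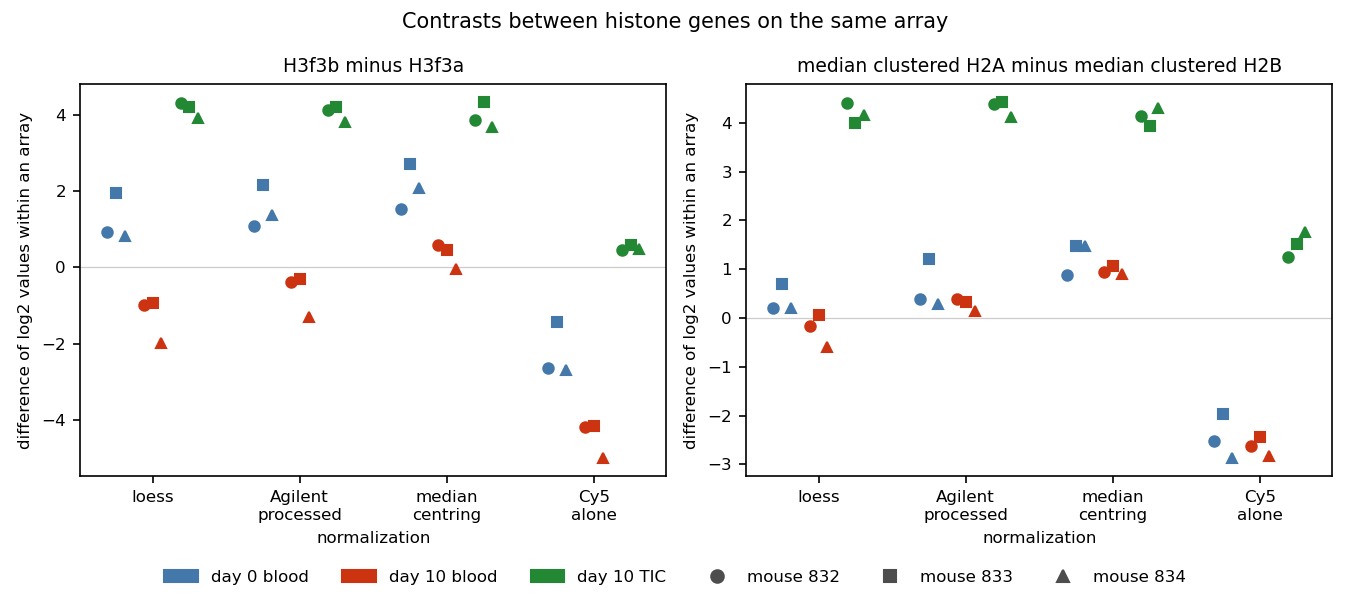
Difference of log2 values between histone genes of the same array (y axis) under 4 normalizations (x axis), for H3f3b less H3f3a (left) and for the median of clustered H2A genes less that of clustered H2B genes (right), 1 point an array. TIC arrays lie above all blood arrays in every setting. On the left, day 10 blood lies below day 0 blood in every setting, and on the right the bloods overlap in 3 of 4.

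H2A.Z, a variant found at promoters, is encoded by H2az1 and H2az2. H2az2 (Cy5 well above background on all arrays) had log2 ratios of 0.69, 0.92 and 0.81 in day 0 blood, -0.19, 0.05 and -0.36 in day 10 blood, and 1.27, 1.83 and 1.99 in TIC. The groups did not overlap, with day 10 blood lowest, as for H3f3b, and TIC highest. The difference between the bloods was -0.98 ± 0.19 (adjusted p = 0.0808). H2az2 rose by 1.87 ± 0.19 in TIC against day 10 blood (adjusted p = 4.87e-05) and by 0.89 ± 0.19 against day 0 blood (adjusted p = 0.00386), though the latter did not pass with Agilent's processed signals (0.70, adjusted p = 0.0961). Its probe carries no accession that the name table matched and was named by an older symbol. H2az1, fitted on the 8 arrays with a usable spot and so without TIC of mouse 832, gave 1.36, 1.71 and 0.80 in day 0 blood, 1.06, 0.87 and 0.49 in day 10 blood, and 2.41 and 3.23 in TIC of mice 833 and 834. It rose by 2.01 ± 0.33 in TIC against day 10 blood (adjusted p = 0.00121) and by 1.53 ± 0.33 against day 0 blood (adjusted p = 0.00511). This fit, made with loess only, was chosen after the data were seen.

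The other H2A variants moved less or unsteadily. H2ax, the variant phosphorylated at DNA breaks, had -0.44, -0.38 and -0.15 in day 0 blood, 0.23, 0.16 and -0.04 in day 10 blood and 0.04, 0.30 and 0.38 in TIC. It was higher in TIC than in day 0 blood by 0.56 ± 0.14 (adjusted p = 0.00632), while the 0.12 ± 0.14 against day 10 blood did not pass (adjusted p = 0.447). Macroh2a1, which codes for an H2A with a large extra domain, rose by 0.48 ± 0.15 against day 10 blood (adjusted p = 0.0211). That call was lost with slide as a block (0.73, adjusted p = 0.112) and without the day 10 array of mouse 833 (0.46, adjusted p = 0.0627), that of mouse 834 (0.48, adjusted p = 0.0555) or the TIC array of mouse 834 (0.32, adjusted p = 0.0596). Against day 0 blood its difference was 0.15 ± 0.15 (adjusted p = 0.391). The other kept probes of Macroh2a1, above background on no day 10 array, gave 0.05 and 0.24 for TIC minus day 10 blood. Neither passed (adjusted p = 0.67 and 0.182 over all probes). H2aj was at -1.10 ± 0.21 (adjusted p = 0.00163) for TIC minus day 10 blood by its brighter probe, with 1.43 in the Cy5 channel alone and 5.32 with median centring. Its second probe went the other way, at 1.003 (adjusted p = 0.00888 over all probes). That probe was above background on no day 10 array, so the size of its difference is uncertain. With probes and scalings that differ in sign, no direction can be given for this gene.

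Both replacement linker histones showed contrasts that rest on 1 probe or on dim spots. H1f0, the linker histone of cells that have stopped dividing, was not well above background on any blood array and was on all 3 TIC arrays, with log2 ratios of 2.26, 1.16 and 2.37 there. The blood arrays gave values between -0.10 and -0.01. It passed the filter only through the TIC arrays, so this difference is given without a test or a fold. The counts of higher genes above and the medians of the replacement genes with loess include it. H1f10 had 0.54, 0.19 and 0.03 in day 0 blood, 0.69, 0.62 and 0.54 in day 10 blood and -4.36, -2.09 and -4.10 in TIC. The difference between TIC and day 10 blood was -4.13 ± 0.51 (adjusted p = 0.000135) with loess and 1.71 with median centring. That probe has no position in the files. The other probe of H1f10, matched to RefSeq, was dim in both bloods and gave log2 ratios of -0.06, -0.15 and 0.24 in TIC. It passed the filter only through the TIC arrays, so no difference or test is given for it.

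**Figure D3:**
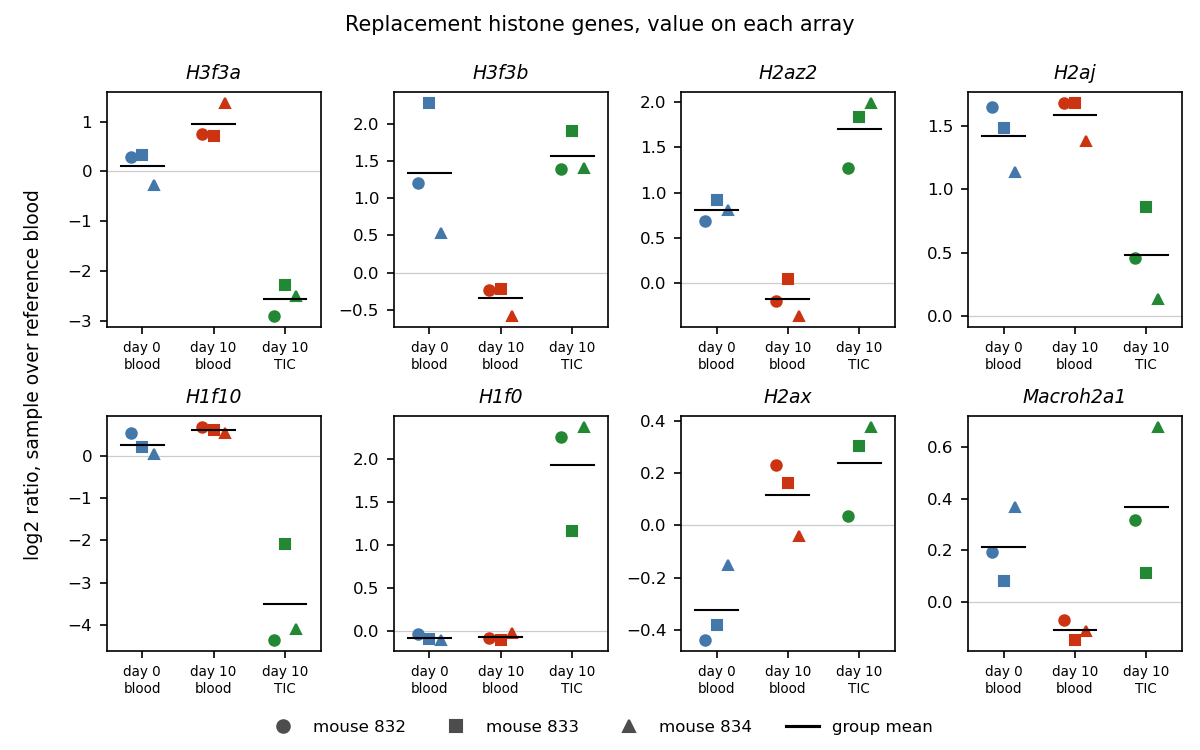
Log2 ratio of sample over reference blood (y axis, a scale of its own in each panel) of the 8 replacement histone genes that passed the filter, after loess, with 1 point a mouse and the group mean as a bar. H3f3a is highest in day 10 blood and lowest in TIC, while H3f3b and H2az2 are lowest in day 10 blood.

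All but 1 of the clustered H2B genes shared a pattern with loess. Of 7 H2B genes tested, 6 lay higher in day 10 than in day 0 blood at an unadjusted p under 0.05, with the arrays of the 2 groups apart in each (15.7% of all genes lay higher with groups apart), and the family median was 0.91. In TIC 6 of 7 were lower than day 10 blood (median -3.05) and lower than day 0 blood (median -2.14) with loess. With median centring 5 of the 6 changed sign against day 10 blood, the exception being H2bu2 (-0.39, not called), and 2 of the 6, H2bc4 and H2bu2, stayed below the median of all genes. The same median centring left the 6 differences between the bloods at -0.57 to 0.32.

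H2bc4 lay furthest below day 10 blood in TIC with loess, though not with median centring. Its log2 ratios were 0.27, 0.07 and 0.23 in day 0 blood, 1.72, 1.30 and 1.69 in day 10 blood, and -2.84, -3.20 and -2.77 in TIC, with a gap of over 1 between any 2 groups. The difference between the bloods was 1.38 ± 0.16 (adjusted p = 0.0514, and 0.046 with the mouse as a block). TIC lay below day 10 blood by -4.50 ± 0.16 (adjusted p = 5.46e-07) with loess, and above it by 1.15 with median centring (adjusted p = 0.131). A second probe with this name, placed elsewhere on chromosome 13, was well above background on no blood array and on all 3 TIC arrays. Its log2 ratios there were 0.42, 0.68 and 0.63. It passed the filter only through the TIC arrays, so no difference or test is given for it.

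H2bc14 had -0.20, -0.41 and -0.23 in day 0 blood, 0.69, 0.51 and 0.68 in day 10 blood and -2.41, -2.50 and -2.36 in TIC. These groups also stood apart, and the replicates lay close together. Its differences were 0.91 ± 0.11 between the bloods (adjusted p = 0.0514, and 0.0464 with the mouse as a block) and -3.05 ± 0.11 for TIC minus day 10 blood (adjusted p = 5.32e-07; 2.49 with median centring). H2bu2, of the small cluster on chromosome 11, had -1.002, -1.16 and -0.62, then 0.07, 0.14 and 0.79, then -3.13, -3.44 and -2.91 in the same order of groups. It gave 1.26 ± 0.23 between the bloods (adjusted p = 0.0702, and 0.0464 with the block) and -3.49 ± 0.23 for TIC minus day 10 blood (adjusted p = 4.73e-06). H2bc1, a testis form, gave 1.40 ± 0.25 between the bloods (adjusted p = 0.0676, and 0.0464 with the block) and -2.47 ± 0.25 for TIC minus day 10 blood (adjusted p = 3.88e-05; 2.67 with median centring). H2bc12 and H2bu1-ps gave -2.70 ± 0.20 and -3.16 ± 0.19 in that comparison (adjusted p = 6.61e-06 and 3.27e-06; 2.78 and 2.33 with median centring). H2bc21, named after its values were seen as the only H2B gene not in the pattern, was not above background on any day 10 array. It was above background on 2 day 0 arrays and on 3 TIC arrays. With loess it was higher in TIC than in day 0 blood, by 0.33 ± 0.11 (adjusted p = 0.0251), opposite to the other H2B genes. Some of these genes are near-identical copies, so the values are not all independent. The accession list of the H2bc14 probe also names H2bc4, H2bc8 and H2bc9, and that of H2bc12 names H2bc11, H2bc13 and H2bc15. That of the H2bu1-ps probe names only H2bu2. The lists of the probes used for H2bc4, H2bu2 and H2bc1 each name that gene alone.

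H2ac1, the head-to-head neighbour of H2bc1 whose promoter it shares, had 0.98, 0.89 and 0.96 in day 0 blood, 1.78, 1.98 and 1.89 in day 10 blood, and 1.18 and 1.09 in TIC of mice 833 and 834. On those 8 arrays, without TIC of mouse 832, its difference between the bloods was 0.94 ± 0.10 (adjusted p = 0.0508) and that for TIC minus day 10 blood was -0.75 ± 0.11 (adjusted p = 0.000686). H2ac1 was fitted with loess only and not with median centring, and this fit, too, was chosen after the data were seen. Both neighbours thus lay higher in day 10 blood with loess, by 0.94 and 1.40, while H2bc1 was at 0.08 with median centring. Against day 0 blood H2ac1 was at 0.19 ± 0.11 (adjusted p = 0.172) and H2bc1 at -1.07 ± 0.25 (adjusted p = 0.00522).

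With loess, most clustered H2A genes called in TIC lay opposite to those of H2B. Of 8 tested, 4 were higher and 1 lower than day 10 blood, with a median of 0.70. The 4 higher genes were H2ac4, H2ac13, H2ac15 and H2aw, named here after their values were seen. H2ac15 had -0.07, -0.11 and -0.11 in day 0 blood, 0.30, 0.13 and 0.05 in day 10 blood, and 2.43, 1.57 and 2.71 in TIC. The bloods lay near the reference and every TIC array lay over 1 above them. It rose by 2.07 ± 0.25 against day 10 blood (adjusted p = 0.000126), H2ac4 by 2.06 ± 0.28 and H2ac13 by 2.03 ± 0.23, and these 3 lay above the median of all genes under each scaling. H2aw was higher by 1.30 ± 0.16 with loess (adjusted p = 0.000164), but at 0.56 with processed signals (adjusted p = 0.153), below the 0.84 of all genes. The other kept probes of H2aw gave 0.75 and 0.18 with loess (adjusted p = 0.0362 and 0.528 over all probes). With slide as a block H2ac15 (1.96, adjusted p = 0.0342) and H2ac13 (1.76, adjusted p = 0.0317) still passed, and H2ac4 did not (1.28, adjusted p = 0.081). The lower gene, H2ac18, was at -2.26 ± 0.34 (adjusted p = 0.000422), and at 2.07 with median centring. H2ac10, the brightest of the family, was at -0.07 ± 0.14 (adjusted p = 0.675). Its second probe, whose accession list also names H2ac15, H2ac7 and H2ac24, was at 2.85.

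**Figure D4:**
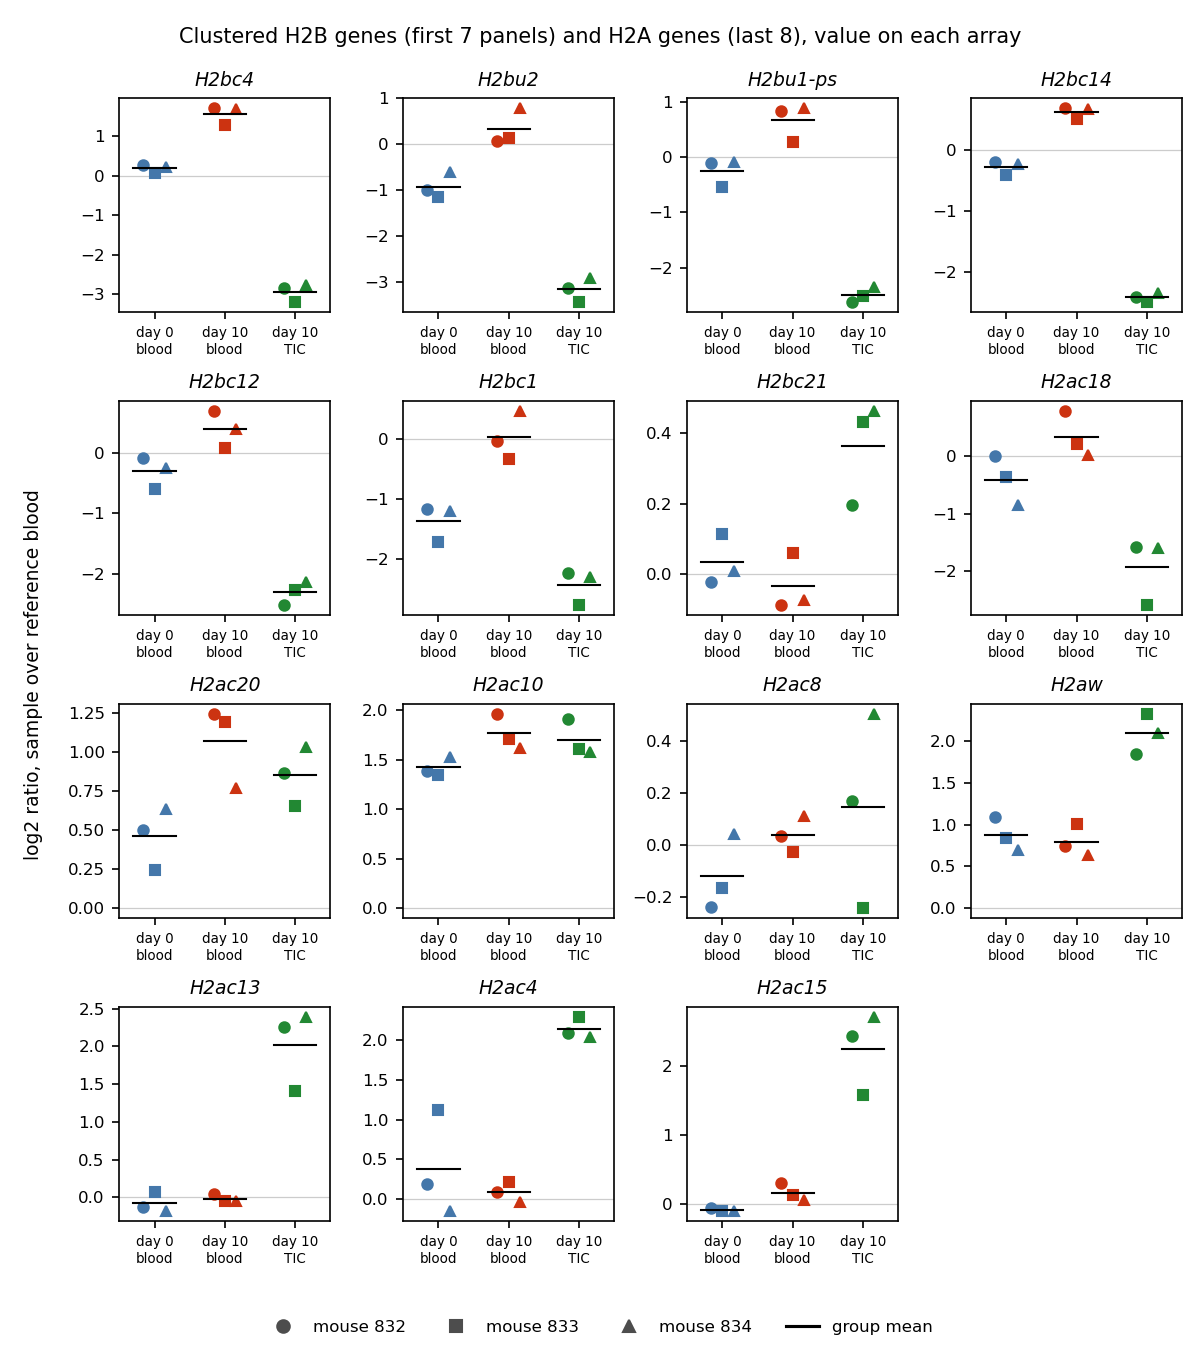
Log2 ratio of sample over reference blood (y axis, a scale of its own in each panel) of 7 clustered H2B and 8 clustered H2A genes after loess, with 1 point a mouse and the group mean as a bar. In 6 of 7 H2B panels day 10 blood is highest and TIC lowest, and in the panels of H2aw, H2ac13, H2ac4 and H2ac15 TIC is highest.

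On the same array, the median of the clustered H2A genes less that of the clustered H2B genes was 0.20, 0.70 and 0.20 in day 0 blood, -0.17, 0.07 and -0.60 in day 10 blood and 4.40, 3.996 and 4.16 in TIC. The TIC arrays stood apart from all bloods under each of 4 normalizations, with a change from day 10 blood of 4.42, 4.01, 3.16 and 4.14 (loess, processed signals, median centring, Cy5 alone). The bloods overlapped under 3 of the 4. The same difference between the medians of replacement and clustered genes was smaller: from day 10 blood to TIC it changed by 0.62, 1.08, 1.16 and 1.25, and between the bloods by -0.34, -0.37, -0.61 and -0.81. These contrasts, too, were set after the values were seen. The replacement median here includes H1f0, which passed the filter only through the TIC arrays. The plot of loess against median centring sets both values of each gene side by side.

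**Figure D5:**
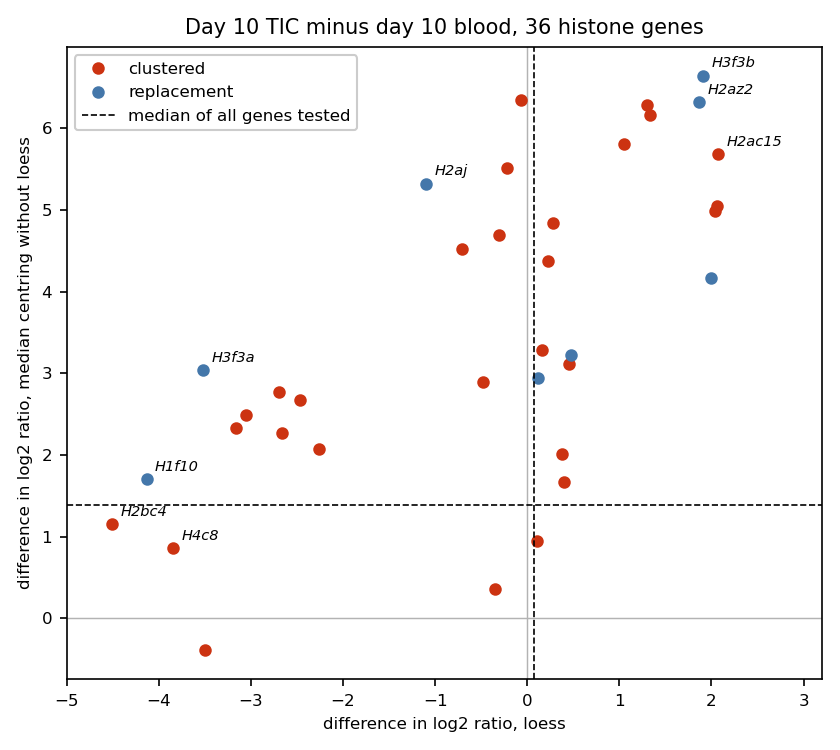
Difference in log2 ratio between TIC and day 10 blood for 36 histone genes with loess (x axis) and with median centring (y axis); grey lines mark 0 and dashed lines the median of all genes tested. H3f3a and H1f10 are below 0 on the x axis and above 0 on the y axis, while H3f3b and H2az2 are high on both.

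Both clustered H3 genes tested, H3c4 and H3c14, were lowest in day 10 blood. H3c14 had 0.30, 0.95 and 0.37 in day 0 blood, -0.64, -0.75 and -0.60 in day 10 blood and 0.41, 1.08 and 0.51 in TIC. H3c4 had 0.55, 1.24 and 0.34, then -0.61, -0.56 and -0.57, then 0.29, 0.93 and 0.19. In both genes day 10 blood lay below all other arrays, and day 0 blood and TIC overlapped. The differences between the bloods were -1.21 ± 0.22 and -1.29 ± 0.26 (adjusted p = 0.0682 and 0.0813), and -1.99 and -2.03 with median centring. Against day 10 blood TIC was higher by 1.33 ± 0.22 for H3c14 (adjusted p = 0.000763) and 1.05 ± 0.26 for H3c4 (adjusted p = 0.00658). Neither passed with slide as a block (1.20 and 0.58, adjusted p = 0.071 and 0.368). The probe lists of both genes name other H3 copies as well, so each value stands for several genes.

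The clustered H4 genes differed little between the bloods (-0.64 to 0.15, none at an unadjusted p under 0.05). In TIC 2 of 6 were lower than day 10 blood and 3 of 6 lower than day 0 blood with loess. H4c4, named after its values were seen, was among the latter (-0.63, adjusted p = 0.0171). That difference changed sign with median centring and in the Cy5 channel alone. The other H4c4 probe, whose accession list names this gene alone, was at 0.40 against day 0 blood (adjusted p = 0.372 over all probes). The probe named H4c8 had 2.16, 1.76 and 1.20 in day 0 blood, 2.37, 1.71 and 1.16 in day 10 blood, and -1.85, -2.69 and -1.75 in TIC. The bloods overlapped and TIC lay below both. It gave -3.84 ± 0.38 for TIC minus day 10 blood (adjusted p = 3.39e-05) with loess and 0.86 with median centring (adjusted p = 0.294), which is below the median of all genes. This probe carries no matched accession, and the files place it on chromosome 13 at 22048045 (mm8), near the H2bc12 probe at 22043524 and away from those of H4c6 at 23558845 and H4c4 at 23589261, so its gene is uncertain. H4c6, the brightest H4 gene, was at -0.71 ± 0.22 (adjusted p = 0.0183) for TIC minus day 10 blood, 0.26 in the Cy5 channel alone and 4.53 with median centring, and the call was lost with slide as a block (-1.04, adjusted p = 0.109) and without the day 10 array of mouse 832 (-0.54, adjusted p = 0.0688) or the TIC array of mouse 834 (-0.61, adjusted p = 0.0641).

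Of the 5 clustered H1 genes tested, H1f2 had the largest difference. It had 0.49, 0.16 and -0.03 in day 0 blood, 0.74, 0.40 and -0.10 in day 10 blood, and -2.89, -2.12 and -1.93 in TIC. The bloods overlapped and TIC lay below both, at -2.66 ± 0.29 against day 10 blood (adjusted p = 6.8e-05) with loess and 2.27 with median centring. H1f5, named after its values were seen, was higher by 0.45 ± 0.11 (adjusted p = 0.00766), and by 0.25 with slide as a block, which did not pass (adjusted p = 0.363). With processed signals it was at 0.54 (adjusted p = 0.311), below the 0.84 of all genes. The other 3 ranged from -0.34 to 0.38 and did not pass.

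Genes that make, carry or place histones were described from a list chosen with earlier results of these data known. Of 10 measured genes of histone transcription and 3′ end processing, 4 were higher and 2 lower in TIC than in day 10 blood, with a median of 0.31, and 10 were higher with median centring. The shares over all genes were those given above, 34.4% higher and 33.1% lower with loess and 72.1% and 3.25% with median centring. Slbp, which binds the stem-loop of histone mRNA, was higher by 0.49 ± 0.13 (adjusted p = 0.0115), and is named after its values were seen. Of 22 chaperones and assembly factors 9 were higher and 7 lower, with a median of -0.08, and 19 were higher and 0 lower with median centring. Nasp, a chaperone of H1 and H3, had -0.07, 0.30 and 0.42 in day 0 blood, 0.03, -0.04 and -0.06 in day 10 blood and 2.35, 1.79 and 2.46 in TIC. No day 10 array had Nasp well above background, so its difference from that group has only a bound and no size is given. Against day 0 blood it rose by 1.98 ± 0.19 (adjusted p = 4.57e-05). Anp32e, which takes H2A.Z out of nucleosomes, had -0.24, -0.48 and -0.56, then -0.04, 0.18 and 0.35, then -3.21, -2.52 and -3.21. This order, day 10 blood highest and TIC lowest, is the reverse of that of H2az2. Anp32e was at -3.14 ± 0.21 for TIC minus day 10 blood with loess and at 0.12 with median centring (adjusted p = 0.732). Ubn1, part of the complex that deposits H3.3, was at -1.27 ± 0.13 in that comparison and at 1.19 with median centring. Hat1, the acetylase of new H4, was dim in both bloods and changed sign between scalings. Between the bloods no gene of the list passed. Its 4 smallest p-values belonged to Asf1b (0.49 ± 0.17), Anp32e (0.59 ± 0.21), Daxx (-0.47 ± 0.17) and Nap1l1, which was dim on all 3 day 10 arrays, with adjusted p from 0.234 to 0.251. A list of 27 S-phase genes had a median of -0.01 between the bloods. Against day 10 blood 15 of the 27 were higher in TIC and 4 lower, with a median of 0.71, and 25 were higher and 0 lower with median centring. In that comparison many genes were well above background on no array of 1 of the 2 groups. These were 15 of the 27 S-phase genes, 8 of the 22 chaperones and 5 of the 10 processing genes, against 7512 of 14253. Passing the filter only through 1 group selects for signal there, so these counts depend partly on the filter. With loess such a gene need not come out higher there.

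Markers of some blood cell types had the order of groups seen for some histone genes, and their part in these results was not tested. In bulk samples fewer cells of a type and less RNA per cell cannot be told apart. The median log2 ratio of 10 erythroid genes ranged from -1.52 to -0.88 in day 0 blood, -0.04 to 0.13 in day 10 blood and -8.05 to -7.03 in TIC, the order seen for H3f3a and 6 H2B genes. Platelet genes (-0.06 to -0.01, 0.47 to 1.24 and -7.44 to -6.45) and T cell genes (-0.88 to -0.71, -0.62 to -0.44 and -3.24 to -2.62) had it too, with 4 of 5 genes of each higher in day 10 blood at an unadjusted p under 0.05. Fibroblast genes, not markers of a blood cell, were also highest in day 10 blood (-0.58 to -0.30). They had -1.28 to -0.76 in day 0 blood and -1.92 to -1.24 in TIC, which overlapped. Neutrophil genes had a median difference of -0.57 between the bloods, with 6 of 7 below 0. None of the 10 erythroid genes passed between the bloods (7 were higher at an unadjusted p under 0.05) and all 10 were lower in TIC than in day 10 blood with loess, 9 of them with median centring. The median of 7 B cell genes ranged from 1.13 to 1.35 in day 0 blood, -0.64 to -0.03 in day 10 blood and -4.64 to -3.97 in TIC. Day 10 blood was below day 0 blood there, as for H3f3b, H2az2 and the clustered H3 genes, but in TIC these genes did not follow the B cell genes. Of 7 hepatoma genes 6 were higher and 1 lower in TIC than in day 10 blood (median 2.66), and 4 of 8 macrophage genes were higher (median 0.61). Over all genes 34.4% were higher and 33.1% lower. In this comparison 3 of the 7 hepatoma and 5 of the 8 macrophage genes were well above background on no array of 1 group. Their counts thus depend partly on the filter. Platelet genes (5 of 5), T cell genes (5 of 5) and neutrophil genes (5 of 7) were lower in TIC than in day 10 blood with loess, and with median centring 4, 0 and 0 of them were. Of 5 fibroblast genes 2 were higher and 3 lower with loess, and 5 were higher with median centring. The same limit held for 4 of these 5.

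Slides gave 2 comparisons free of slide differences. On slide 2, TIC of mice 833 and 834 less day 0 blood of mice 832 and 833 gave -2.71 for H3f3a, -0.09 for H3f3b, -3.16 for H2bc4, -2.12 for H2bc14, 2.22 for H2ac15 and 1.11 for H2az2. On slide 3, the 3 day 10 bloods less the day 0 blood of mouse 834 gave 1.23 for H3f3a, -0.88 for H3f3b, 1.34 for H2bc4, 0.86 for H2bc14, -0.92 for H3c4 and -0.98 for H2az2. Each of these has the sign of the difference over all arrays, except H3f3b in TIC against day 0 blood, which did not pass there.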

How the data were processed

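RNA of 9 samples was measured on 9 two-colour Agilent arrays, 3 a group. The scanner tables the authors deposited come from Feature Extraction (Agilent), version 10.5.1.1 per the file headers and 9.1.3.1 per the submitters' processing notes, and give spot intensity and local background intensity for each dye. The authors also deposited a table of log10 ratios, Cy5 over Cy3, equal to those of the scanner tables, with a median of 0 on each array. Probe positions are on build mm8, per the file headers.

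From mean spot and median background intensities, background was corrected by normexp (offset 50, spots with non-uniform background set aside) and log2 ratios were normalized within arrays by loess. Probes were kept where Cy5 was well above background on 3 or more of the 9 arrays and no array lacked a value, and the brightest probe of each gene was used (14253 genes). Names came from the files, updated through a RefSeq table of GRCm38.p6. The groups were fitted in limma 3.58.1 (R 4.3.3), group as the only term, 6 residual degrees of freedom, and Benjamini-Hochberg adjustment over all genes, with a threshold of 0.05. The fit was tested on simulated data. The number of arrays limits the precision.

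Named genes are all replacement genes measured, in each comparison the 6 clustered genes with the smallest p, the brightest clustered gene of each family and the 4 genes of the supply list with the smallest p. The members, lists and rules were chosen with earlier results of these data known. Samples with the same number come from the same mouse by their titles. Deviations from the group means correlated at 0.19, 0.35 and 0.24 between the bloods of a mouse, and between -0.06 and 0.06 for TIC with either blood. The mouse as a block was an alternative fit.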

Additional observations from a re-analysis of the deposited data

How the results depend on the processing

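Beyond the values in the report, the settings moved the following results. Between the bloods, with 0 histone genes called by limma, 1 was called with Agilent's processed signals and 1 with the deposited ratios (5.35% and 5.31% of all genes), 8 among genes above background on all 9 arrays, 2 of 53 when every probe was tested on its own (0.06% of all probes), 4 with the replicate block and 8 with only the 2 groups compared. For TIC minus day 10 blood, 16 were called with the slide block and 8 with the replicate block and slide block, against 25. Leaving out 1 array at a time gave 0 to 10, 23 to 27 and, for TIC minus day 0 blood, 21 to 27. It gave median differences of 0.02 to 0.12, -0.23 to -0.05 and -0.44 to -0.13 for the clustered genes, and of 0.0075 to 0.15, 0.19 to 0.36 and 0.03 to 0.31 for the replacement genes, in the same order of comparisons. Besides the 4 H2B calls given in the report, the replicate block changed the call of 1 named gene, Asf1b in TIC minus day 0 blood (0.39, adjusted p = 0.0315 with the block and 0.07 without).

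The medians below are to be read against the median of all genes in the same setting. Between the bloods that was -0.22 with processed signals, -0.21 with the deposited ratios, -0.18 with median centring, 0.10 above background on all arrays, and -0.02 to -0.01 in the other settings named. In TIC minus day 10 blood it was 0.09 with normexp on all spots and over the mean of probes, 0.84 with processed signals, 0.85 with the deposited ratios, 1.38 with median centring, 0.14 with Cy5 alone, -0.998 above background on all arrays, 0.12 over every probe, 0.06 with the slide block and 0.01 with both blocks. In TIC minus day 0 blood it was 1.16 with median centring, 0.09 with Cy5 alone and -0.98 above background on all arrays.

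The clustered median between the bloods was -0.52 with median centring and 0.23 with the slide block. For TIC minus day 10 blood it was 0.012 with normexp on all spots, 3.002 with median centring, 0.40 with Cy5 alone, -0.48 among genes above background on all arrays, 0.13 over the mean of probes, 0.16 over every probe, -0.72 with the slide block and -0.60 with the replicate block and slide block. For TIC minus day 0 blood it was 2.58 with median centring. The replacement median between the bloods was -0.029 with processed signals, -0.078 with the deposited ratios, -0.81 with median centring, -0.015 with Cy5 alone, 0.26 above background on all arrays, -0.012 over the mean of probes, -0.063 over every probe, 0.15 with the slide block and 0.011 with H2az1 added. For TIC minus day 10 blood it was 0.80 with processed signals and with the deposited ratios, 3.70 with median centring, 1.12 with Cy5 alone, -0.49 above background on all arrays, 0.61 with the slide block and 0.58 with both blocks. For TIC minus day 0 blood it was 3.52 with median centring, 0.98 with Cy5 alone and -0.36 above background on all arrays.

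With median centring these lower genes reversed in TIC minus day 10 blood: H1f10 1.71, H2aj 5.32, H3f3a 3.04, H2bc4 1.15, H2bc14 2.49, H2bc1 2.67, H2bu1-ps 2.33, H2bc12 2.78, H4c8 0.86, H1f2 2.27, H4c6 4.53, Anp32e 0.12, Hat1 1.02 and Ubn1 1.19. In TIC minus day 0 blood they were H1f10 0.72, H2aj 4.19, H3f3a 2.41, H2bc4 1.11, H2bc14 2.11, H2bc1 2.76, H2bu1-ps 1.96, H2bc12 2.20, H1f2 1.32, H4c6 3.35, Daxx 2.70, Hat1 0.99 and Ubn1 1.01. With Cy5 alone the reversed genes were H2aj (1.43 and 1.37), H4c6 (0.26 and 0.11) and Hat1 (1.49 and 1.35), and with processed signals and the deposited ratios Hat1 (0.0074) against day 10 blood. The cause was not tested. Dyes were not swapped, and dim spots in day 10 blood limit what could be measured there.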
